A study of Homo sapiens with 12 samples.

Results

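The 10 genes described here encode the main heat shock proteins of the cytosol and of mitochondria: HSPA1A, HSPA1B, HSPA8, HSPH1, HSP90AA1, HSP90AB1, DNAJB1, HSPB1, HSPE1 and HSPD1. They were chosen by symbol, and all 10 were found among the 26475 gene symbols of the count tables. Heat shock proteins are molecular chaperones, which bind unfolded or partly folded proteins and let them fold, refold or be degraded. Several are made in every cell and others are induced when proteins unfold, through the transcription factor HSF1, which binds heat shock elements in their promoters. Tumour cells are known for high chaperone levels.

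The cells were SUM159, a human triple-negative breast cancer line that lacks the receptors for oestrogen and progesterone and HER2 amplification. They were grown as tumours in female NOD scid gamma mice aged 8 weeks at injection, which have no functional B, T or NK cells but keep myeloid cells. Control mice (CTR) ate a standard diet, and the others had a fasting-mimicking diet (FMD) on 4 days in a row of every week. Tumour cells that were positive for CD44 were sorted by staining for human CD24 into a CD24-low (LO) and a CD24-high (HI) population. Polyadenylated RNA was sequenced with its strand kept, from 500 ng of total RNA. This gave 4 groups of 3 libraries, CTR_LO, CTR_HI, FMD_LO and FMD_HI, in all of which the tumour was of the same line in the same mouse strain. The labels do not say whether a library came from 1 mouse or from pooled mice, so the p-values measure only the spread between these libraries, which may be technical. SUM159 is a single line, and the 12 libraries do not sample other tumours.

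The libraries held 17736610 to 47587142 counts. The 3 of FMD_LO held at most 18579816 and the other 9 at least 29049144. Levels are given as CPM, a gene's share of the counts of its library on a fixed scale, with library totals adjusted by TMM, the trimmed mean of M values. FMD_LO also stood apart on the first principal component of log2 CPM, which carried 57.4% of the variance, at 79.5 to 88.9. CTR_LO replicate 2 lay at 2.35 and the other 8 libraries between -46.1 and -24.3. VIM, CD44, CAV1 and EGFR, markers that SUM159 expresses, summed to 5702 to 7821 CPM over the 12 libraries, and EPCAM, ESR1 and ERBB2, which it has at low levels, to 57.4 to 88.7. VIM alone had 4348 to 6459 CPM. CD44, also an antigen of the sort, had 667 to 1229 CPM. Its log2 fold change, CD24-high minus CD24-low, was 0.09 ± 0.18 under the control diet and 0.53 ± 0.18 under FMD (edgeR adjusted p = 0.0775 under FMD). Transcripts of CD24, the antigen that split the populations, were low, at 1.03 to 3.27 CPM, and did not pass between populations, with a log2 fold change of -0.18 ± 0.40 under the control diet and 0.42 ± 0.43 under FMD (CD24-high minus CD24-low; adjusted p of 1 and 0.584). The sort was on surface protein. Markers of other cells were in sum higher in FMD_LO. The 10 leukocyte markers summed to 149 to 174 CPM there, against 15.1 to 27 in the control libraries and 29.1 to 42.5 in FMD_HI. Of the 8 tested, 5 rose in FMD_LO against CTR_LO. Of all 15461 genes tested, 1863 rose and 670 fell in this comparison, and the marker counts given here are to be read against these. TYROBP, a marker of myeloid cells, was at 0 in all 3 FMD_LO libraries. PTPRC, which encodes the leukocyte antigen CD45, had 59.9, 49.3 and 44.7 CPM in FMD_LO and 1.76 to 4.34 elsewhere. The 9 fibroblast markers summed to 44643 to 66510 CPM in FMD_LO and to 13313 to 32400 in the other groups, with 5 of 9 risen. COL1A1, COL1A2 and COL3A1 held most of these sums, and COL1A1 had 7995 ± 932 CPM even in FMD_HI. LUM had 22.3 ± 13.4 CPM in FMD_LO and 26.3 ± 30.5 in CTR_LO, and DCN 65.8 ± 11.8 and 58.8 ± 38.3 (SD). The 7 endothelial markers summed to 20.4 to 40.9 CPM in FMD_LO against 6.06 to 13.4 elsewhere, with 2 of the 6 tested risen, KDR and TEK. TEK had a mean of 4.85 CPM in FMD_LO, against 0.66 in CTR_LO, 0.16 in CTR_HI and 0.15 in FMD_HI. It thus passed the filter for enough counts through FMD_LO, and its call is not independent of that filter. KDR lost its call in 9 alternative fits. No fibroblast or endothelial marker was at 0 throughout a group. The 6 proliferation markers summed to 235 to 388 CPM in FMD_LO and 394 to 539 in CTR_LO, where 1 of them fell and 0 rose. They were lower under FMD in CD24-high cells too, at 256 to 457 CPM in FMD_HI and 397 to 656 in CTR_HI. Their median log2 fold change between diets was -0.67 in CD24-low and -0.59 in CD24-high cells. The part of these differences in the results below was not tested.

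Sequences of the promoters are shown because most of these genes carry the element that HSF1 binds, and because the near-identical pair HSPA1A and HSPA1B limits how their counts can be read. The sequences are those of RefSeq on GRCh38.p14, in which all 10 genes matched, as windows from 250 bases before to 50 bases after a transcript start. A heat shock element is a run of the block GAA in alternating orientation. It was searched as 2 units, GAANNTTC or TTCNNGAA, and as 3 units, GAANNTTCNNGAA or TTCNNGAANNTTC. Each form of 2 units reads the same on both strands and the forms of 3 units are each other's reverse complement, so that both strands were covered. Matches of 3 units contain overlapping matches of 2. Below, capitals mark the matched bases, and each stretch runs 5′ to 3′ on the strand of its gene.
HSPA1A: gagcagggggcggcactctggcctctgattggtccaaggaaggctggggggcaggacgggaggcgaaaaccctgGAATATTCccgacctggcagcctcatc
HSPA1B: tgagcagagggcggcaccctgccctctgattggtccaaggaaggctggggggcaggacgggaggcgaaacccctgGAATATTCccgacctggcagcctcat
The HSPA1A stretch is chr6:31815363-31815463 and the HSPA1B stretch chr6:31827558-31827658, both on the plus strand, from 180 to 80 bases before the start and outside annotated exons. The 2 promoter windows were identical at 277 of 300 aligned bases (92.3%).

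HSPA8, both HSP90 genes and HSPD1 were the 4 genes with a match of 3 units, shown here with those of DNAJB1 and HSPB1 at 2 units. Each stretch has 30 bases around a match.
HSPA8: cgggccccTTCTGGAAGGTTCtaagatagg
HSP90AA1: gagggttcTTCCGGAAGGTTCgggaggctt
HSP90AB1: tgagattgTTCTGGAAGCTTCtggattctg
HSPD1: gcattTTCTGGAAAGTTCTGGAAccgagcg
DNAJB1: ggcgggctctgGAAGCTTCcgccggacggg
HSPB1: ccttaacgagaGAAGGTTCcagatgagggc
These lie at chr11:123062170-123062199 (HSPA8, minus strand), chr14:102087111-102087140 (HSP90AA1, minus), chr6:44247823-44247852 (HSP90AB1, plus), chr2:197500061-197500090 (HSPD1, minus), chr19:14518426-14518455 (DNAJB1, minus) and chr7:76302480-76302509 (HSPB1, plus). For HSPA8, HSP90AA1, HSP90AB1, DNAJB1 and HSPD1 the start is that of a transcript that begins inside the full span of the gene. A match of 2 units was found in 8 of the 10 genes, all but HSPH1 and HSPE1, against 16.2% of the 27305 genes with a window. A match of 3 units was found in 4 of 10, against 0.608%. With only the 250 bases before the start the genes with a match were again 8 and 4, against 14.0% and 0.557%. A match describes letters and does not show that a factor bound there.

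The HSP70 proteins hold unfolded stretches of other proteins through cycles of ATP binding. HSPA1A (chr6:31815543-31817942) and HSPA1B (chr6:31827738-31830254) encode the inducible HSP70. HSPA1A had 1152, 1278 and 1147 CPM in replicates 1 to 3 of CTR_LO, and 828, 1129 and 1204 in CTR_HI. It had 823, 807 and 1625 CPM in FMD_LO and 887, 857 and 1345 in FMD_HI. In both FMD groups replicate 3 was high and the other 2 replicates lay below all 3 of CTR_LO, so that the groups overlapped. The fitted log2 fold change of HSPA1A between diets in CD24-low cells was -0.14 ± 0.26 (SE; 95% interval -0.71 to 0.44; adjusted p = 0.767). Without FMD_LO replicate 3 it was -0.56 (adjusted p = 0.0854), and without FMD_LO replicate 1 or 2 its sign turned, to 0.03 and 0.04.

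HSPA1B had 1017, 1081 and 1050 CPM in CTR_LO and 783, 942 and 1267 in CTR_HI, against 770, 694 and 1165 in FMD_LO and 844, 789 and 1188 in FMD_HI. It was high in replicate 3 and lower in replicates 1 and 2 of every group but CTR_LO, where its 3 libraries lay close together. The log2 fold change between diets in CD24-low cells was -0.26 ± 0.22 (95% interval -0.73 to 0.21; adjusted p = 0.452). Without FMD_LO replicate 3 it was -0.53 (adjusted p = 0.103). Of the 100-base stretches of the HSPA1A transcript, 69.9% also occur in HSPA1B. Reads of these stretches may be missing from both counts and from their sum, or be divided between the pair in an uncertain way. Their summed CPM was 2169, 2359 and 2197 in CTR_LO and 1611, 2071 and 2471 in CTR_HI, against 1593, 1501 and 2791 in FMD_LO and 1732, 1647 and 2533 in FMD_HI, and the groups overlapped on this sum too.

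HSPA8 (chr11:123057489-123062462) encodes the constitutive cytosolic HSP70, which also takes part in chaperone-mediated autophagy and in the uncoating of clathrin vesicles. It had 2547, 3007 and 2672 CPM in CTR_LO and 2486, 2817 and 2457 in CTR_HI, against 3531, 3328 and 3238 in FMD_LO and 3352, 2869 and 2827 in FMD_HI. Within each population every FMD library lay above every control library, in CD24-high cells by a small margin. The means were 3365 ± 150 CPM in FMD_LO and 2742 ± 238 in CTR_LO (SD, n = 3 each), a log2 fold change of 0.30 ± 0.12 (95% interval 0.05 to 0.55). This had an edgeR p of 0.0239 and an adjusted p of 0.101. In CD24-high cells the means were 3016 ± 291 CPM under FMD and 2587 ± 200 under the control diet, a log2 fold change of 0.22 ± 0.12 (adjusted p = 0.803). The interaction, the diet's difference in CD24-high minus that in CD24-low cells, was -0.07 ± 0.16 (95% interval -0.43 to 0.28; adjusted p = 0.893). Its call depended on the method. DESeq2 called it in CD24-low cells (adjusted p = 0.0293), and over both populations edgeR gave 0.26 ± 0.08 (adjusted p = 0.0594) and DESeq2 an adjusted p of 0.00769. Each fit over both populations took same-numbered libraries as independent, so its SE and p may be too small.

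HSPH1 (chr13:31134973-31162388) encodes HSP110, a relative of HSP70 that exchanges its nucleotide. It had 118, 153 and 126 CPM in CTR_LO and 119, 154 and 128 in CTR_HI, against 131, 126 and 99.9 in FMD_LO and 120, 135 and 98.4 in FMD_HI. Replicate 2 was the highest of both control groups and replicate 3 the lowest of both FMD groups, and all 4 groups overlapped. DNAJB1 (chr19:14514769-14560391) encodes an HSP40 that delivers substrates to HSP70 and stimulates its ATPase. It had 1301, 1207 and 1036 CPM in CTR_LO and 946, 1055 and 1186 in CTR_HI, against 1081, 1083 and 1254 in FMD_LO and 1141, 1171 and 1304 in FMD_HI. The group means of DNAJB1 ran from 1062 ± 120 CPM in CTR_HI to 1205 ± 86.6 in FMD_HI (SD, n = 3). The log2 fold change between diets was -0.05 ± 0.13 in CD24-low and 0.18 ± 0.13 in CD24-high cells, with adjusted p of 0.817 and 0.893.

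HSP90 proteins complete the folding of kinases, steroid receptors and other clients. HSP90AA1 (chr14:102080742-102139749), the more inducible form, had 1792, 1752 and 1484 CPM in CTR_LO and 1575, 1565 and 1323 in CTR_HI, against 1471, 1730 and 1573 in FMD_LO and 1343, 1507 and 1340 in FMD_HI. In both diets the CD24-high mean was the lower one, with overlap. HSP90AA1 was lower in CD24-high in 3 of 3 same-numbered pairs of each diet, and so was HSPA8. Of all genes 11.4% had this sign in 3 of 3 pairs under the control diet and 28.1% under FMD. The share of all genes with this sign in every pair of both diets was not counted. These signs were counted after the values had been seen. Without pairing, the log2 fold change of HSP90AA1 between populations was -0.17 ± 0.12 under the control diet (95% interval -0.43 to 0.09) and -0.19 ± 0.12 under FMD (95% interval -0.45 to 0.07). HSP90AB1 (chr6:44246194-44253883), the constitutive form, had 2771, 2712 and 2598 CPM in CTR_LO and 2703, 2568 and 2177 in CTR_HI, against 2126, 2463 and 2424 in FMD_LO and 2325, 2734 and 2631 in FMD_HI. All 3 FMD_LO libraries lay below all 3 of CTR_LO, with a log2 fold change of -0.20 ± 0.12 (95% interval -0.46 to 0.05; adjusted p = 0.259). In CD24-high cells the diet groups of HSP90AB1 overlapped and the log2 fold change was 0.05 ± 0.12. The difference between these diet effects, 0.25 ± 0.17, did not pass (adjusted p = 0.548).

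HSPB1 (chr7:76302673-76304292) encodes HSP27, a small heat shock protein that holds unfolded proteins without ATP. It had 872, 886 and 899 CPM in CTR_LO and 744, 927 and 823 in CTR_HI, against 590, 724 and 908 in FMD_LO and 675, 859 and 978 in FMD_HI. The CTR_LO libraries lay close together, while FMD_LO spanned from the lowest of the 12 values to above all of CTR_LO. The log2 fold change between diets in CD24-low cells was -0.26 ± 0.17 (95% interval -0.61 to 0.10; adjusted p = 0.313). Without FMD_LO replicate 3 it was -0.44 (adjusted p = 0.0966) and without FMD_LO replicate 1 it was -0.12 (adjusted p = 0.720).

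HSPD1 (chr2:197486584-197500274) encodes HSP60, the chamber-forming chaperonin of the mitochondrial matrix, and HSPE1 (chr2:197500379-197503449) its lid, HSP10. The genes stand head to head with 104 bases between their RefSeq spans. HSPD1 had 409, 456 and 478 CPM in CTR_LO and 480, 450 and 385 in CTR_HI, against 334, 372 and 379 in FMD_LO and 401, 400 and 398 in FMD_HI. All 3 FMD_LO libraries lay below every other library, and the FMD_HI libraries lay close together. Means were 362 ± 23.8 CPM in FMD_LO and 448 ± 35.1 in CTR_LO (SD, n = 3), a log2 fold change of -0.31 ± 0.11 (95% interval -0.55 to -0.06). This had an edgeR p of 0.0174 and an adjusted p of 0.0819. It was -0.13 ± 0.11 in CD24-high cells and -0.22 ± 0.08 over both populations, with adjusted p of 0.938 and 0.0941. As for HSPA8, the SE over both populations may be too small. The interaction of HSPD1 was 0.18 ± 0.16 (95% interval -0.17 to 0.52), and DESeq2 did not call HSPD1 in any contrast.

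HSPE1 was counted at 5.73 to 13.3 CPM, and its count cannot be taken as its level. It received 3867 counts over the 12 libraries, against 152330 for HSPD1. HSPE1-MOB4, an annotated read-through gene that shares exon sequence with HSPE1, had 0 counts in all 12 libraries, and MOB4, which it also spans, 41 in all. Of the 50-base stretches of the HSPE1 transcript, 52.9% occur in transcripts of other genes in either orientation, most often HSPD1 (25.7%). HSPD1 lies on the other strand beside HSPE1, so those stretches may be the same bases read in opposite directions. Strand-specific counts can tell such reads apart, and the orientation of the shared stretches was not recorded. Whether reads were left uncounted for these reasons was not tested. The highest value of HSPE1 was in FMD_LO replicate 3 and the lowest in FMD_HI replicate 1. Between populations under FMD the log2 fold change was -0.40 ± 0.23 (adjusted p = 0.306), and with libraries of one number paired within each diet it was -0.44 and passed (adjusted p = 0.0481). The size rested on single libraries, at -0.18 without FMD_HI replicate 1 and -0.70 without FMD_HI replicate 3 (adjusted p = 0.664 and 0.0527).

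**Figure D1:**
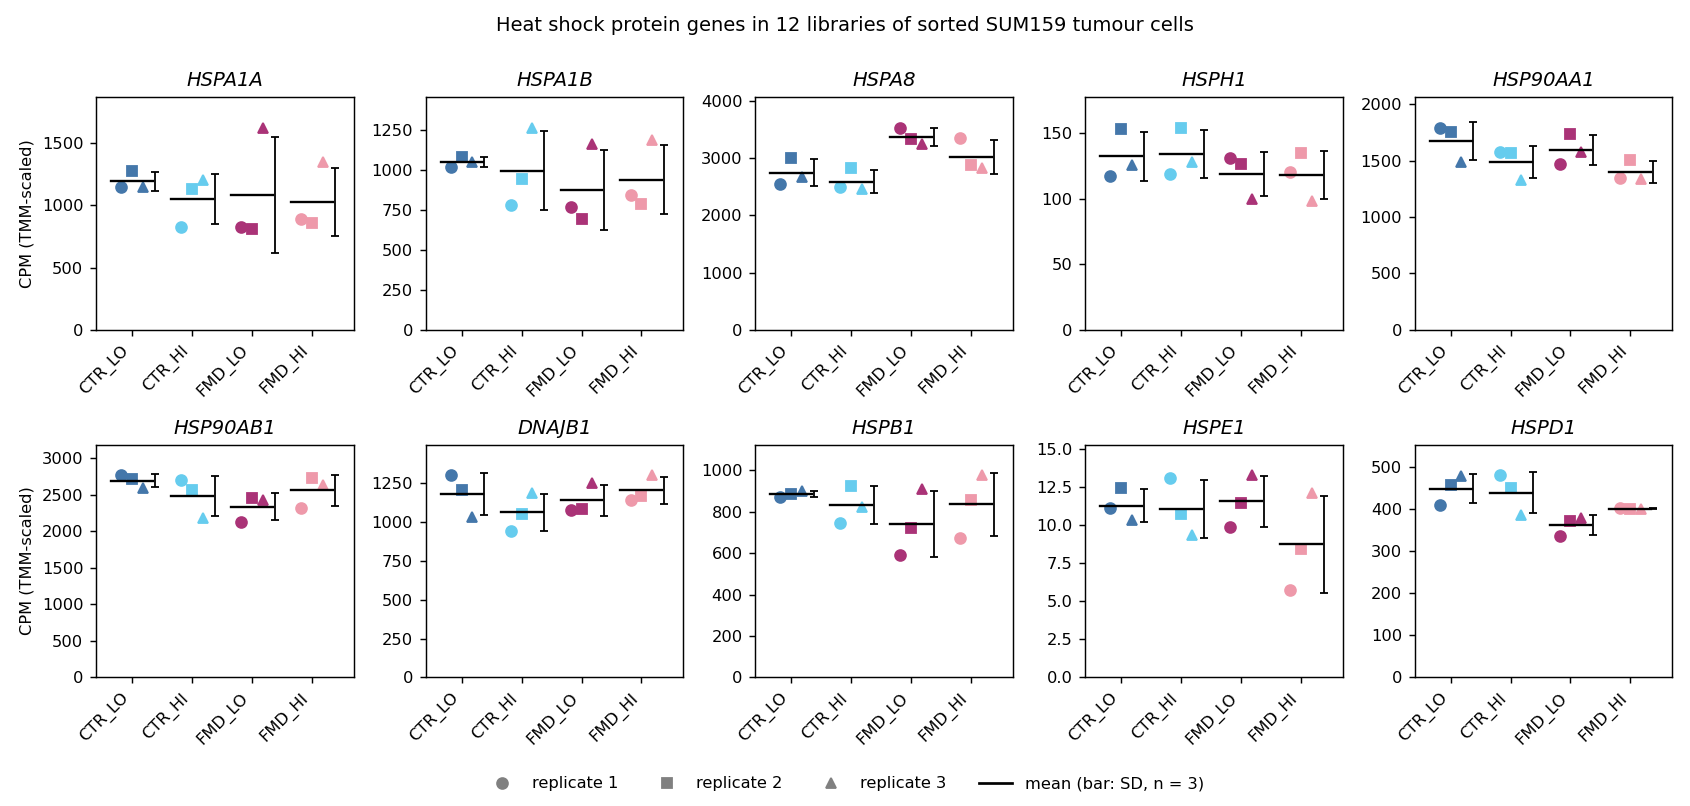
CPM (TMM-scaled, y axis from 0) of the 10 genes in each library by group, with circles, squares and triangles for replicates 1, 2 and 3, a line at the group mean and a bar for the SD (n = 3). HSPA8 lies higher in each FMD group than in the control group of the same population, HSPD1 is lowest in FMD_LO, and HSPA1A and HSPA1B are high in replicate 3 of both FMD groups.

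Tested over all 15461 genes with edgeR, 0 of the 10 genes passed an adjusted p of 0.05 in any of the 6 contrasts. Bulk RNA gives a level per library, so that fewer cells of a type and less RNA per cell cannot be told apart. Between diets in CD24-low cells, where 16.4% of all genes were called (1863 higher and 670 lower in FMD_LO), 2 of the 10 had an unadjusted p below 0.05, HSPA8 and HSPD1, and DESeq2 called 1, HSPA8. Over all genes 4787 of 15461 had such an unadjusted p and DESeq2 called 3008 of 17592, so that the shares of the 10 were no higher than these. The median log2 fold change of the 10 was -0.14, against -0.03 over all genes. The 3 libraries of each group did not overlap for 3 of the 10, HSPA8, HSP90AB1 and HSPD1, against 37.5% of all genes. The share of the 10 without overlap was no higher than that of all genes. No 95% interval reached a 2-fold difference, and the bounds farthest from 1 were 0.601-fold and 1.46-fold.

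Between diets in CD24-high cells edgeR called 0 of the 10 and 0% of all genes. No gene of the 10 had an unadjusted p below 0.05 and DESeq2 called none of them, while over all genes 1042 had an unadjusted p below 0.05 and DESeq2 called 78. HSPA8 was the 1 gene of the 10 whose libraries did not overlap, against 9.19% of all genes. The intervals of the 10 lay between 0.564-fold and 1.46-fold. Between populations under the control diet edgeR again called 0 of the 10 and 0% of all genes, with 91 genes in all at an unadjusted p below 0.05, none of the 10 among them, and 0 called by DESeq2. All 10 overlapped, against 3.43% of all genes that did not, and their intervals lay between 0.593-fold and 1.38-fold. Within the same-numbered control pairs 4 of the 10 had one sign of difference in 3 of 3, against 20.5% of all genes. HSPA8, HSP90AA1 and HSP90AB1 were lower in CD24-high and HSPH1 was higher, a count added after the values had been seen.

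Between populations under FMD 14.0% of all genes were called (284 higher and 1879 lower in FMD_HI), and none of the 10, of which 0 had an unadjusted p below 0.05 and 0 were called by DESeq2. With same-numbered libraries blocked within each diet, 4201 genes were called (1600 higher and 2601 lower) and 1 of the 10, HSPE1 (adjusted p = 0.0481). Within the same-numbered FMD pairs 8 of the 10 had one sign of difference in 3 of 3, against 63.1% of all genes, a count added after the values had been seen. HSPA1B, HSP90AB1, DNAJB1, HSPB1 and HSPD1 were higher in CD24-high, and HSPA8, HSP90AA1 and HSPE1 were lower. Only HSPD1 had groups that did not overlap, higher in FMD_HI, against 31.4% of all genes. Intervals lay between 0.536-fold and 1.49-fold. With the diet's effect averaged over both populations, 11.1% of all genes were called (1197 higher and 514 lower under FMD) and 0 of the 10. This contrast treats same-numbered CD24-low and CD24-high libraries as independent. As most of these correlated within a diet, its standard errors may be too small and its calls too many. HSPA8 and HSPD1 had an unadjusted p below 0.05, as had 4272 of all genes, and DESeq2 called HSPA8, among 2461 of 16713 genes. The interaction called 4.13% of all genes (8 higher and 630 lower) and 0 of the 10, of which none had an unadjusted p below 0.05 and none was called by DESeq2. With the block within diet the interaction called 1702 genes (315 higher and 1387 lower) and again 0 of the 10. For the interaction 9 of the 10 intervals lay within 2-fold, and that of HSPE1 reached down to 0.477-fold.

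**Figure D2:**
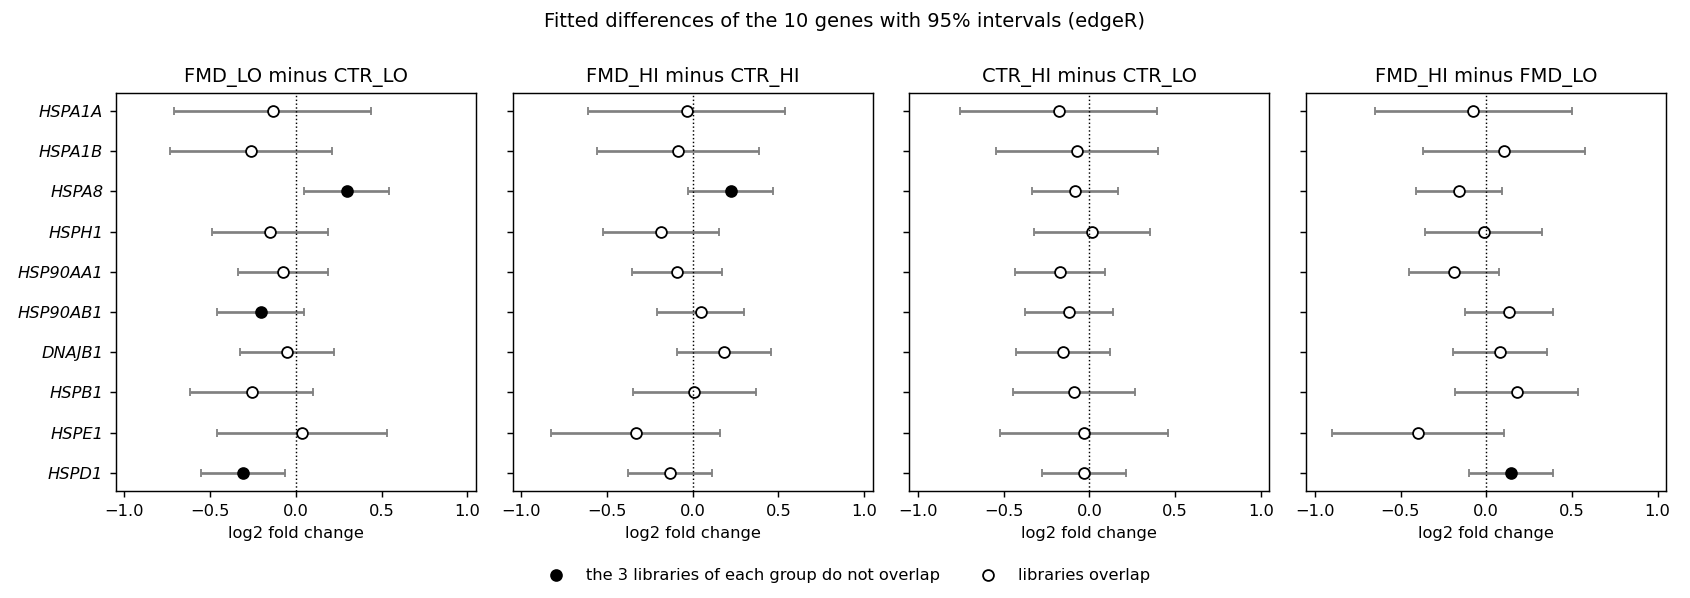
Log2 fold changes (x axis) of the 10 genes in 4 contrasts, fitted with edgeR over 12 libraries, with 95% intervals as bars and filled points where the 3 libraries of one group do not overlap those of the other. Only the intervals of HSPA8 and HSPD1 between diets in CD24-low cells leave out 0, and neither passes after adjustment over all genes.

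The 10 genes together held 12012 ± 523 CPM in CTR_LO and 11085 ± 484 in CTR_HI, against 11629 ± 940 in FMD_LO and 11515 ± 537 in FMD_HI (SD, n = 3). The lowest sum was 10677 CPM, in CTR_HI replicate 1, and the highest 12680, in FMD_LO replicate 3. Levels of different genes were compared as CPM per kilobase of the longest principal transcript. HSPA8 was the highest at 1189 CPM per kilobase (mean of 12 libraries), followed by HSP90AB1 at 942 and HSPB1 at 906. DNAJB1 (507), HSP90AA1 (455), HSPA1A (439) and HSPA1B (383) came next, HSPD1 stood at 168 and HSPH1 at 24.2 CPM per kilobase. The places of HSPA1A and HSPA1B are uncertain. Of their 100-base stretches 69.9% and 72.7% occur in other genes, so their counts may miss reads. The range over 12 libraries overlapped that of the next gene for HSPA8 and HSP90AB1, for HSP90AB1 and HSPB1, and for each neighbouring pair from DNAJB1 to HSPA1B. HSPB1 did not overlap DNAJB1, HSPA1B did not overlap HSPD1, and HSPD1 did not overlap HSPH1.

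The genes differed in how steady they were between replicates. The pooled SD of log2 CPM within groups was 0.37 for HSPA1A, 0.32 for HSPE1 and 0.31 for HSPA1B, larger than for 92.0%, 87.7% and 86.3% of the 9258 genes with a mean of at least 10 CPM. It was 0.11 for HSPD1 and for HSPA8, larger than for 12.2% and 12.4% of those genes, and 0.12 for HSP90AB1. HSP90AA1 (0.13) and DNAJB1 (0.14), which are inducible too, lay below the median gene (0.18). In the FMD libraries, replicate 3 had the highest value in both populations for 5 of the 10 genes, HSPA1A, HSPA1B, DNAJB1, HSPB1 and HSPE1, against 22.1% of all genes tested. It had the lowest value in both populations for HSPA8 and HSPH1, 2 of 10, against 26% of all genes. Replicate 1 of FMD had the lowest value in both populations for 4 of 10, HSP90AB1, DNAJB1, HSPB1 and HSPE1, against 19.7% of all genes. Among control libraries, replicates 1 and 3 each had the lowest value in both populations for 3 of 10, against 16.6% and 13.4%. Control replicate 2 had the lowest for 0 of 10 (15.6% of all genes) and control replicate 3 the highest for 0 of 10 (10.8%). Control replicates 1 and 2 each had the highest for 2 of 10 (15.6% and 20.0%). FMD replicate 1 had the highest for 1 of 10 (22.1%). FMD replicate 2 had the highest for 2 of 10 (14.2%) and the lowest for 2 of 10 (12.5%). These counts were made after the values had been seen.

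Genes with the most similar pattern were found from log2 CPM centred on each gene's mean, by the root mean square difference over the 12 libraries from 9257 other genes. For HSPA1A the nearest was its copy HSPA1B at 0.13, then MST1 at 0.15 and ACCS at 0.17. HSPB1 ranked 25 for HSPA1A, DNAJB1 230 and HSPA8 4849. For HSP90AB1, whose pattern was flat, C11orf58, RBM34 and TMCO1 were nearest at 0.05 each, with HSPD1 at rank 550 and HSP90AA1 at 1053. HSP90AA1 was nearest to MARCKS (0.06), PCNP (0.07) and VPS72 (0.07), HSPD1 to EIF1AX, IFT57 and SPTLC1 (0.06 to 0.07), and DNAJB1 to ACAD10 (0.08), DNAJB12 and ARHGEF25 (0.09 each). Apart from HSPA1B, none of the 10 genes was among the 3 nearest of HSPA1A, HSP90AA1, HSP90AB1, HSPD1 or DNAJB1. The 12 libraries share groups and depth, and flat genes are near many other flat genes on this measure.

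Counts for other chaperones between diets in CD24-low cells are read against the 1863 genes that rose and the 670 that fell of all 15461. Whether these lists differ from the 10 genes was not tested. Of 11 other HSP70 family genes tested, 2 rose in FMD_LO and 0 fell. HSPA1L encodes an HSP70 best known from testis and its gene stands head to head with HSPA1A. It had 3.4, 14.3 and 3.0 CPM in CTR_LO and 62.0, 52.8 and 73.1 in FMD_LO, against 3.06 to 5.86 in CTR_HI and 2.71 to 4.16 in FMD_HI. All 3 FMD_LO libraries were far above the other 9, and the next highest was CTR_LO replicate 2, the library that also lay nearest to FMD_LO on the first principal component. Its log2 fold change was 3.20 ± 0.55 (adjusted p = 0.00288). The GAATATTC shown above for HSPA1A, at chr6:31815437-31815444, lies 106 bases before the start of HSPA1A and 161 bases before that of HSPA1L on the other strand. Of the 50-base stretches of the HSPA1L transcript, 2.44% occur in HSPA1A in either orientation.

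HSPA2, a further HSP70 known from testis, had 5.64, 8.53 and 6.92 CPM in CTR_LO and 18.9, 16.7 and 19.3 in FMD_LO, with no overlap. Its log2 fold change was 1.38 ± 0.19 (adjusted p = 0.000245). HSPA6, an HSP70 gene that is nearly silent without stress, had 191, 419 and 280 CPM in CTR_LO and 155, 372 and 289 in CTR_HI, against 190, 163 and 268 in FMD_LO and 184, 175 and 255 in FMD_HI. It overlapped in every comparison, with a log2 fold change of -0.52 ± 0.34 between diets in CD24-low cells (95% interval -1.27 to 0.23; adjusted p = 0.330). The mitochondrial HSP70 gene HSPA9 had 0.11 ± 0.11 (adjusted p = 0.530). The endoplasmic reticulum forms stand outside the cytosolic set. HSPA5 (BiP) had 2849 ± 285 CPM in FMD_LO and 1686 ± 352 in FMD_HI and with HSPA2 and HSPA1L made up the 3 of 11 HSP70 genes that were lower in FMD_HI, where 0 were higher, against 1879 lower and 284 higher of all 15461 genes. With the block within diet 4 of 11 were lower and 1 higher, against 2601 and 1600 of all 15461 genes. HSPA5 had -0.76 ± 0.18 (adjusted p = 0.0123; 0.0532 without FMD_LO replicate 2 and 0.0549 without FMD_HI replicate 3). HSP90B1 (GRP94) had group means of 1454 to 1598 CPM.

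Of 15 other DNAJ genes, which like DNAJB1 bring substrates to HSP70, 4 rose in FMD_LO against CTR_LO and 0 fell, against 1863 and 670 of all 15461 genes. DNAJA2 rose by a log2 fold change of 0.82 ± 0.14 (adjusted p = 0.00109), from 75.7, 99.4 and 81.3 CPM to 143, 168 and 141. DNAJB5 rose by 1.03 ± 0.19 and DNAJA4, at under 4 CPM in every library, by 3.05 ± 0.64, with adjusted p of 0.00245 and 0.00525. DNAJA4 had 0.08, 0.87 and 0.15 CPM in CTR_LO and 3.20, 3.30 and 2.22 in FMD_LO, with means of 0.15 in CTR_HI and 0.09 in FMD_HI. It thus passed the count filter through the group in which it was high, and its call is not independent of that filter. DNAJA1 rose by 0.63 ± 0.16 (adjusted p = 0.0160) and lost its call without CTR_LO replicate 1, CTR_LO replicate 3 or FMD_LO replicate 2 (up to 0.0752). DNAJA1, DNAJA2, DNAJA4 and DNAJB4 were lower in FMD_HI than in FMD_LO, 4 of 15, and 0 were higher, against 1879 and 284 of all genes. With the block within diet 6 of 15 were lower and 1 higher, against 2601 and 1600 of all 15461 genes. The call of DNAJA1 there was lost without FMD_LO replicate 1, FMD_LO replicate 2 or FMD_HI replicate 3 (up to 0.118). Of 3 other small heat shock protein genes with enough counts, CRYAB, which encodes αB-crystallin, rose from 2.40, 7.36 and 2.41 CPM in CTR_LO to 27.5, 31.1 and 25.9 in FMD_LO (2.81 ± 0.46, adjusted p = 0.00152). Of its 50-base stretches 19.0% also occur in HSPB2, in an orientation that was not recorded.

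Between diets in CD24-low cells edgeR called 0 of 16 cochaperones of HSP90 (2 at an unadjusted p below 0.05, 0 called by DESeq2), 0 of 9 cofactors of HSP70 (2 and 1) and 0 of 8 subunits of CCT, the cytosolic chaperonin (1 and 0). It also called 0 of 7 prefoldin genes (1 and 0), 0 of 14 mitochondrial chaperones and proteases (2 and 0) and 0 of 4 heat shock factor genes (1 and 0). Over all genes 4787 of 15461 had an unadjusted p below 0.05. The median log2 fold changes of these lists were -0.09, -0.19, -0.09, -0.14, -0.10 and -0.00, against -0.14 for the 10 genes and -0.03 for all genes. HSF1 itself had 78.2, 77.3 and 86.3 CPM in CTR_LO and 80.6, 86.1 and 86.0 in CTR_HI, against 77.9, 71.5 and 72.0 in FMD_LO and 86.7, 79.9 and 89.3 in FMD_HI. Its log2 fold change between diets in CD24-low cells was -0.13 ± 0.10 (95% interval -0.34 to 0.08; adjusted p = 0.408). Transcript level does not report the activity of HSF1, which is set mainly by its release from chaperones and by phosphorylation.

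Of 19 further genes that HSF1 is known to induce under stress, 5 rose and 2 fell in FMD_LO against CTR_LO, against 1863 and 670 of all 15461 genes. It is a list of which 12 genes, CRYAB and DNAJA1 among them, also stand in another list. UBB, a polyubiquitin gene, had 346, 493 and 324 CPM in CTR_LO and 1855, 1920 and 1614 in FMD_LO, against 285 to 361 in CTR_HI and 300 to 337 in FMD_HI. The log2 fold change of UBB was 2.21 ± 0.16 (adjusted p = 3.01e-06). As 45.1% of the 50-base stretches of its transcript occur in other genes, its count may include or miss reads of those. DEDD2 rose by 1.32 ± 0.21 and SERPINH1, the collagen chaperone HSP47, by 0.80 ± 0.15, with adjusted p of 0.000879 and 0.00283. CLU, which encodes the secreted chaperone clusterin, fell by 0.96 on the log2 scale (adjusted p = 0.0118; 0.0522 without FMD_LO replicate 2) and MRPL18, a protein of the mitochondrial ribosome, fell by 0.35 (adjusted p = 0.0387; called in 5 of the 12 fits that left out 1 library). BAG3, the HSF1-induced cofactor of HSP70, had 0.15 ± 0.12 (adjusted p = 0.450).

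Heat shock element matches of 2 units were found in the promoter windows of 4 of the 9 genes with a window among the 10 other chaperone and stress genes that rose, DNAJA1, DNAJA4, HSPA1L and SERPINH1. Of these DNAJA4 had passed the count filter through FMD_LO. Among all 80 other chaperone and stress genes with a window they were found in 24 (30%), and among the 10 heat shock protein genes in 8. The genes that rose in FMD_LO rose in the libraries in which the sums of leukocyte, fibroblast and endothelial markers were also higher. The part of other cells in their levels was not tested. Of 14 immediate early genes, which dissociation of tissue is known to induce, 0 passed between diets in CD24-low cells (2 at an unadjusted p below 0.05, 0 called by DESeq2). Over all genes 16.4% passed, 4787 of 15461 had such an unadjusted p and DESeq2 called 3008 of 17592. The 14 genes summed to 18361 to 26669 CPM over the 12 libraries. Dissociation and sorting of tissue are known to induce heat shock genes together with them. The part of such handling in the levels of the 10 heat shock protein genes was not tested.

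**Figure D3:**
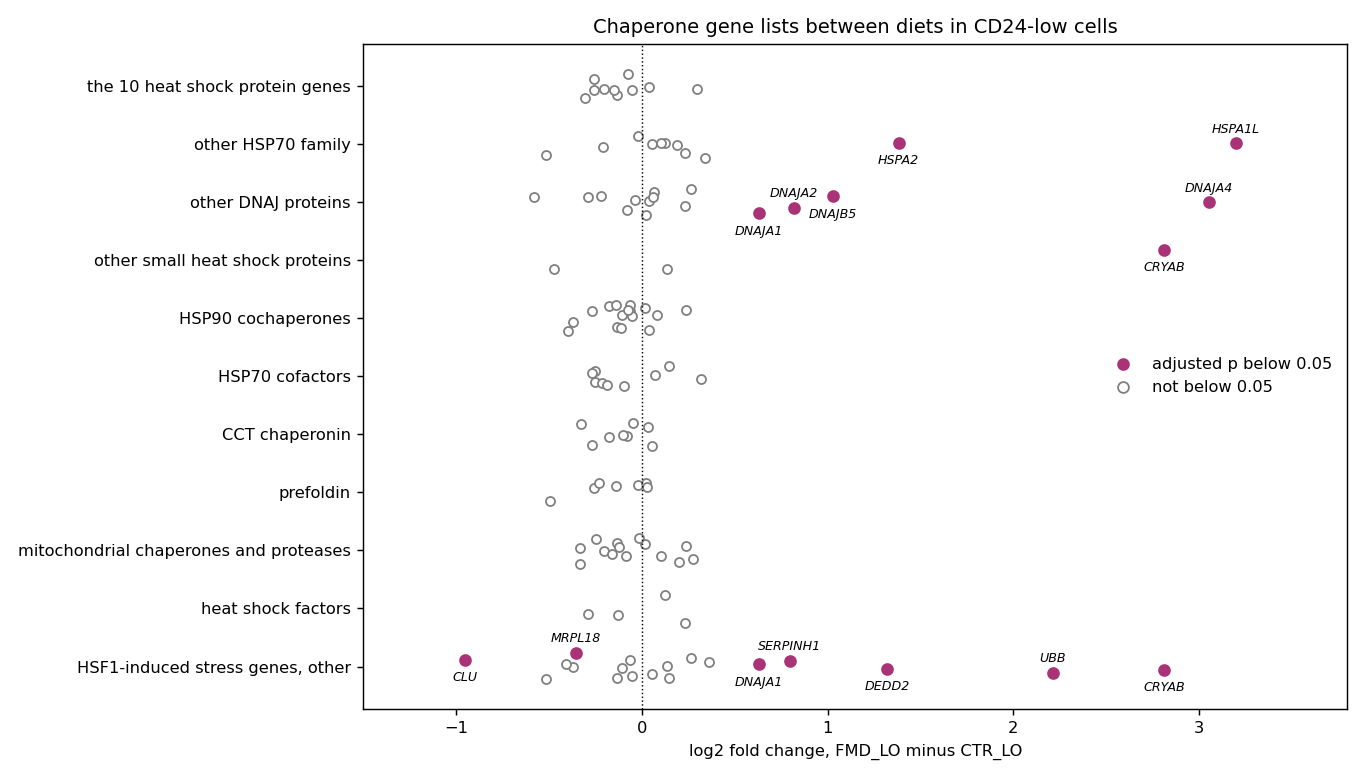
Log2 fold change between diets in CD24-low cells (x axis, FMD_LO minus CTR_LO) of each tested gene of 11 lists (rows, with random vertical scatter), filled and named where the adjusted p was below 0.05. The 10 heat shock protein genes lie between -0.31 and 0.30 with none filled, while HSPA1L, DNAJA4, CRYAB and UBB lie above 2.

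**Figure D4:**
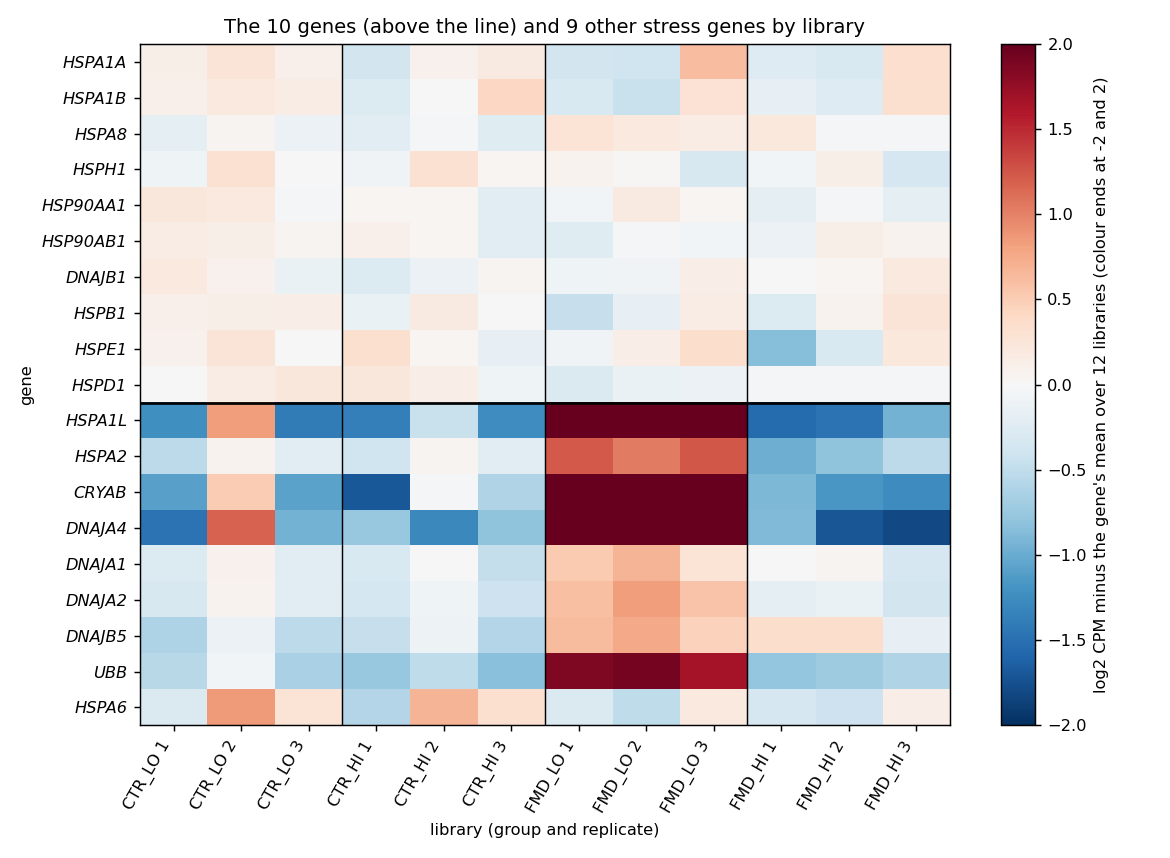
Log2 CPM minus each gene's mean over 12 libraries, in colour, for the 10 genes above the line and 9 other stress genes below it, with 1 column per library. HSPA1L, HSPA2, CRYAB, DNAJA4 and UBB are high in the 3 FMD_LO libraries, while HSPA1A and HSPA1B are high in replicate 3 of both FMD groups.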

How the data were processed

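The authors deposited raw read counts per gene for 12 strand-specific libraries, unstranded and by strand. STAR and the build hg38 are named, per the submitters' processing notes. The version of STAR, the gene annotation and any removal of mouse reads are unknown, being not given in the sources used here. Counts of the column of the reverse strand were used, as opposite-strand reads made 1.59% to 1.75%. The 10 genes and all lists were chosen with earlier results of these data known.

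One model of all 4 groups was fitted in edgeR 4.0.16 and R 4.3.3 (quasi-likelihood, robust, TMM scaling, filter by group), which tested 15461 genes with 8 residual degrees of freedom. A gene passed when its p, adjusted over all tested genes by Benjamini and Hochberg, was below 0.05. Standard errors were taken from the fold change and the F statistic (approximate), and 95% intervals use the fit's degrees of freedom. The procedure was tested on simulated data. All 10 genes passed the filter and are named in every contrast. Of each other list up to 4 called genes with the smallest p were to be named, otherwise up to 2 as values, and the text prints part of these. CD24, HSPA6, HSPA9 and BAG3, and genes lower than the first 4 of a list, were named after their values were seen. So were the single values of VIM, CD44, COL1A1, LUM and DCN. Sequence sharing used GENCODE 29 and counted a stretch found in either orientation.

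Replicate numbers come from the titles. Deviations of same-numbered CD24-low and CD24-high libraries correlated at 0.444, 0.285 and 0.485 under FMD, which pairs them, and at 0.445, 0.522 and 0.0373 under the control diet. As alternatives, each library was left out in turn, the unstranded counts were used, DESeq2 1.42.0 or RLE scaling was used, the count filter was dropped, each contrast was fitted on its own groups, and replicate numbers were blocked in 2 ways.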

Additional observations from a re-analysis of the deposited data

Results flagged for a closer look

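None of the 10 heat shock protein genes showed a diet effect that differed between the populations past the threshold. Among the 93 other chaperone and stress genes tested, 6 did (6.45%, against 4.13% of all genes), each with a diet difference that was lower in CD24-high than in CD24-low cells by the interaction term of edgeR. Of all 638 genes called, 630 had that direction. With same-numbered libraries blocked within diet, 11 of the 93 were lower and 3 higher, against 1387 and 315 of all 15461 genes (1702 called). The interaction was -3.30 on the log2 scale for CRYAB (adjusted p = 0.0152; 0.0506 without FMD_HI replicate 3) and -1.97 for HSPA2 (adjusted p = 0.00104). It was -2.21 for UBB (adjusted p = 0.000156). For HSPA1L the interaction was -3.52 (adjusted p = 0.0313), and the call was kept in 4 of the 12 fits that left out 1 library. For DNAJA2 it was -0.76 (adjusted p = 0.0401) and for SERPINH1 -0.88 (adjusted p = 0.0349), and each kept its call in 3 of 12 such fits. Groups of 3 libraries are too small for a check of single libraries that stand apart.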

How the results depend on the processing

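Between diets in CD24-low cells DESeq2 called 1 of the 10 genes in place of 0, HSPA8. Over both populations 1 was called with RLE scaling, with DESeq2 and with a replicate block by number, again HSPA8 (adjusted p = 0.0476, 0.00769 and 0.0481), and without single libraries the count ran from 0 to 1, with HSPA8 passing without CTR_HI replicate 2 (0.0395). No fit of this contrast blocked same-numbered libraries within each diet. Between populations under FMD a replicate block within diet called 1, HSPE1. No other alternative changed a call of the 10 genes, 6 of 1090 recomputed values in all, and the causes were not tested. The blocks changed no other call of the 10 genes; the block by number lost KDR (diet, CD24-low) and JUNB (diet, both populations), and the block within diet lost COL1A2 (interaction). Over all genes the block within diet called 4201 in place of 2163 between populations under FMD and 1702 in place of 638 for the interaction. Between diets same-numbered libraries correlated between -0.221 and 0.0824, so there the numbers name libraries only. Leaving out 1 library turned the sign of 49 of 720 values of the 10 genes, none of them called. Of 69 called values of other chaperone, stress and marker genes, 48 passed under every alternative that tested them. Depth limits HSPE1, at 167 to 536 counts a library, more than the others, which had at least 1842.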
